A study of Mus musculus with 6 samples.

Results

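The cytokines TGF-β and IL-10, their receptors and the TGF-β–induced matrix gene *Tgfbi* were examined in bulk RNA of MCA205 tumors, a methylcholanthrene-induced fibrosarcoma line grown under the skin of mice. The genes were listed by name: the ligands *Il10*, *Tgfb1*, *Tgfb2* and *Tgfb3*, the receptor chains *Il10ra*, *Il10rb*, *Tgfbr1* and *Tgfbr2*, and *Tgfbi*. All 9 were found among the 54309 gene identifiers of the table, and all 9 were among the 13963 genes tested, those that averaged 10 normalized counts or more. A normalized count is a read number scaled by 1 size factor per tumor, which evens out sequencing depth. Female C57BL/6J mice, 7 weeks old at inoculation, drank milliQ water (control, 3 tumors) or water with 0.1 mg/mL FF-10101 (3 tumors) from day 1 to day 8 after inoculation, and tumors were taken on day 8. FF-10101 is an orally available covalent inhibitor of the kinase FLT3 that also inhibits CSF1R, the receptor on which macrophages depend. Whole tumors were lysed, so each value sums over tumor cells, tumor-associated macrophages (TAMs), T cells and stroma, and fewer cells of a type cannot be told apart from less RNA per cell.

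TGF-β is secreted in a latent complex, stored in the matrix by latent TGF-β binding proteins, and released by integrins and thrombospondin. The active ligand binds TGFBR2, which phosphorylates TGFBR1, and TGFBR1 in turn phosphorylates SMAD2 and SMAD3, which enter the nucleus with SMAD4. IL-10 binds IL10RA, which pairs with IL10RB, a chain shared with receptors of other cytokines such as IL-22, and the kinases JAK1 and TYK2 then activate STAT3. In tumors both cytokines are known for restraining macrophages and T cells, and TGF-β also for driving matrix production by fibroblasts.

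No gene of this axis differed between FF-10101–treated and control tumors beyond the spread of the tumors. By limma with Benjamini-Hochberg adjustment over all tested genes, 0 of 9 passed an adjusted p of 0.05, as against 0.043% of all tested genes (6 of 13963). At an unadjusted p of 0.05 the count was 0 of 9, as against 16.3% of all tested genes, and limma-voom on the recovered reads also called 0 of 9. For none of the 9 were the 3 treated tumors all above or all below the 3 control tumors, a pattern that 20.2% of all tested genes showed. The median log2 fold change (treated minus control) was −0.024 over the 9 genes and 0.020 over all tested genes. A missed threshold does not show that the levels were alike: the 95% intervals of the log2 fold change were narrowest for *Tgfbr1* (−0.72 to 0.19) and widest for *Il10* (−1.41 to 0.70).

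**Figure D1:**
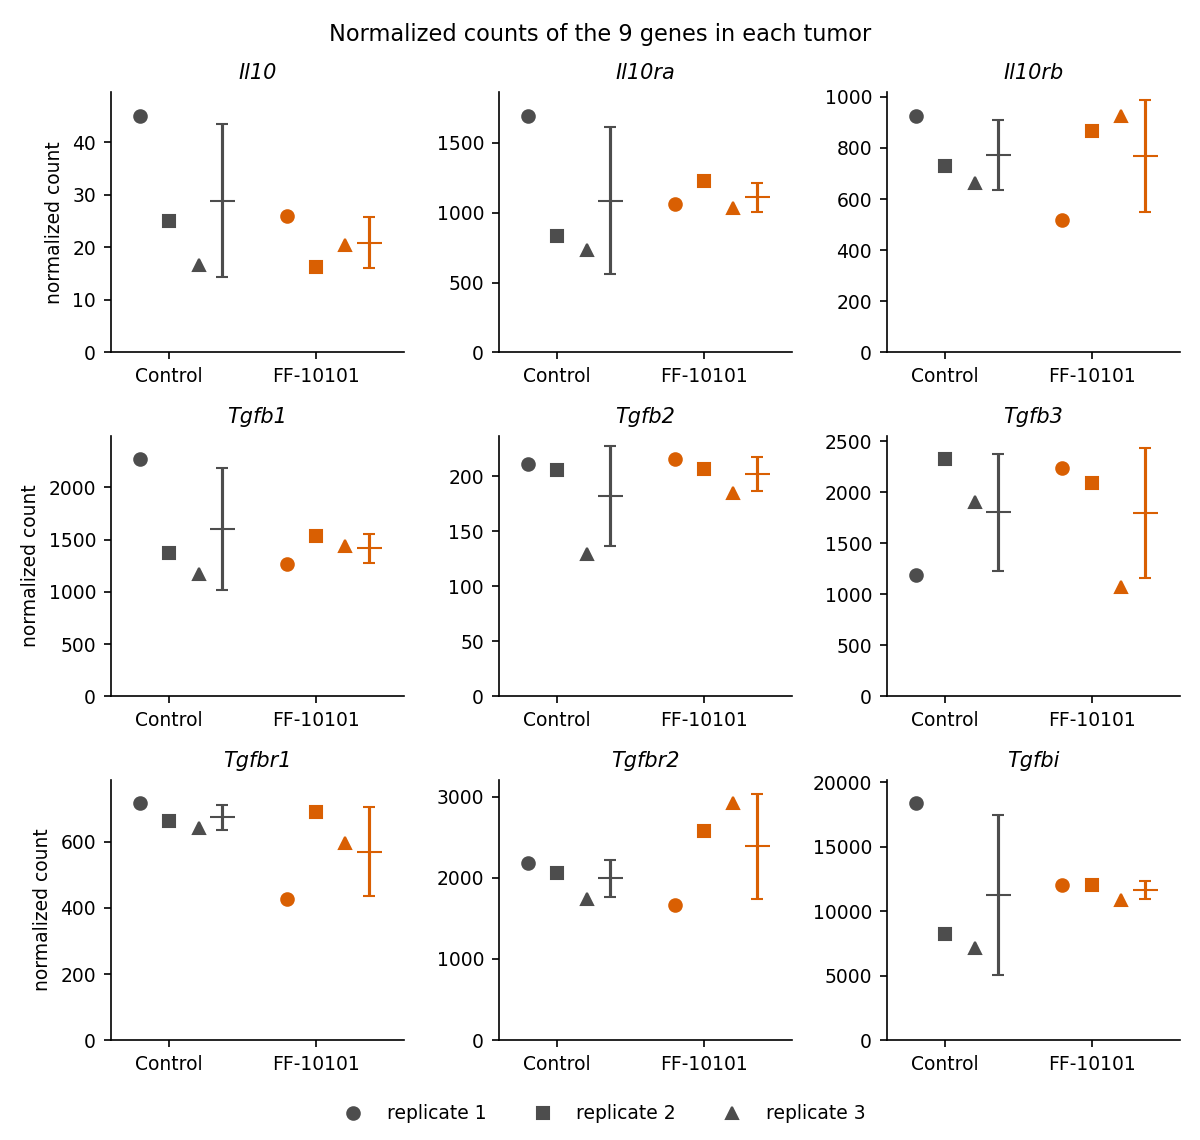
Normalized counts of the 9 genes on linear axes from 0, 1 symbol per tumor (circle, square and triangle for replicates 1, 2 and 3), with the mean and SD of each group of 3 beside them. Control tumor 1 stands highest for *Il10*, *Il10ra*, *Il10rb*, *Tgfb1*, *Tgfbr1* and *Tgfbi*, and the 2 groups overlap for every gene.

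The tumors held 9143806 to 13258258 reads each, and 18467 to 19440 genes had a read. The 8 mesenchymal markers listed for fibrosarcoma had reads in every tumor, but they cannot tell tumor cells from stroma, so this does not check that label. The summed level of 10 macrophage markers, all read in every tumor, was 39295 to 68839 normalized counts in control tumors and 25682 to 36312 in treated tumors (exact two-sided permutation p = 0.1, the smallest that 3 against 3 tumors can give). Of these markers 4 of 10 did not overlap between the groups, *Adgre1* and the 3 complement C1q genes, all lower in treated tumors, as against 20.2% of all tested genes in either direction. Without the C1q genes, a choice made after seeing the data, the sum of the other 7 overlapped, at 11910.0 to 24106 in control and 9759 to 15394 in treated tumors. Control tumor 1 stood apart with the highest macrophage sum (68839 against 39295 and 39503 in controls 2 and 3) and the highest sum of 8 T cell markers (2651 against 1092 and 1024). Within the controls it also had the highest sums of endothelial (5781 against 2291 and 1816), fibroblast (17106 against 11297 and 9070) and mesenchymal markers (200781 against 115427 and 95387). The same held for regulatory T cell (1136 against 635 and 606), pericyte (2379 against 2191 and 1530) and platelet markers (125 against 73.9 and 47.7). Its neutrophil sum was not the highest (2255 against 2323 and 2000.0), and its B cell sum was the lowest (57.4 against 73.9 and 61.0). The part of these cell types in the results below was not tested.

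Among the ligands, *Tgfb1* (ENSMUSG00000002603), the isoform made by most leukocytes, had 2268, 1374 and 1168 normalized counts in control tumors 1, 2 and 3 and 1269, 1536 and 1444 in treated tumors 1, 2 and 3. The treated tumors lay within the control range, and control 1 was the highest of the 6. The control mean was 1603 ± 585 and the treated mean 1416 ± 136 (SD, n = 3 each), and the log2 fold change was −0.12 (SE 0.25, 95% interval −0.69 to 0.45, limma adjusted p = 0.822). *Tgfb1* and *Il10* are among the genes the study used to mark M2-like macrophages, and it reported them as downregulated by treatment in these same tumors. The values here come from the same RNA, so they are no independent check of that report.

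The promoter of *Tgfb1* is printed because *Tgfb1* and *Tgfbi* both stood highest in control tumor 1. It is the RefSeq window of 250 bases before to 50 after the transcription start (GRCm38.p6, plus strand, chr7:25686752-25687051), and its GC content is 77.0%. Capitals mark every match to GGGCGG, the GC box read by SP1 family factors, on either strand.

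Tgfb1 promoter: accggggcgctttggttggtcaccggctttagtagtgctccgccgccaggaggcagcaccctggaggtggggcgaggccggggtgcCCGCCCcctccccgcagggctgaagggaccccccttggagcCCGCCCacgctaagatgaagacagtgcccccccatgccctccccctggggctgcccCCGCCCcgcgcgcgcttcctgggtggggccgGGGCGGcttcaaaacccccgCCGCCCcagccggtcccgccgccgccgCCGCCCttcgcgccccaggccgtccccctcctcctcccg

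The window holds 6 GC boxes. Of 32851 RefSeq promoters of the same length, 35.7% hold at least 1 and 1.35% hold at least as many. No match to CAGAC (a SMAD half-site), TGANTCA (AP-1) or TTCNNNGAA (STAT) lies in these letters. These motifs, and both promoters shown, were chosen after the values were seen, and a match is not a binding site.

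*Tgfb3* (ENSMUSG00000021253), an isoform with prominent roles in palate and epithelial development, was lowest in control tumor 1 among the controls. It had 1189, 2321 and 1908 normalized counts in control tumors 1 to 3 and 2239, 2091 and 1070.2 in treated tumors 1 to 3. The lowest control and the lowest treated tumor were close to each other, and both groups spread about alike. The means were 1806 ± 573 and 1800.1 ± 636 (SD, n = 3 each), and the log2 fold change was −0.024 (SE 0.34, 95% interval −0.81 to 0.76, limma adjusted p = 0.980).

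*Tgfb2* (ENSMUSG00000039239) was the scarcest of the TGF-β isoforms. It had 212, 205 and 129.8 normalized counts in the controls and 215, 206 and 185 in the treated tumors. Control tumor 3 was the lowest, and the other 5 tumors lay close together. The means were 182 ± 45.6 and 202 ± 15.7 (SD, n = 3 each), and the log2 fold change was 0.18 (SE 0.23, 95% interval −0.36 to 0.72, limma adjusted p = 0.721).

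To compare the isoforms with each other, levels were divided by the median length of their protein-coding transcripts, and each isoform was given as a share of the sum of the 3. *Tgfb1* made up 72.2%, 46.3% and 47.5% in the controls and 45.0%, 51.5% and 64.9% in the treated tumors. The shares of the groups overlapped, and the highest was that of control 1. The group means were 55.3% ± 14.7 and 53.8% ± 10.1 (SD, n = 3 each), a difference of −1.53 percentage points (exact two-sided permutation p = 0.8). *Tgfb3* took most of the remainder, at 24.3%, 50.3% and 49.9% in the controls and 51.1%, 45.0% and 30.9% in the treated tumors. *Tgfb2* took 2.67% to 3.50% in the controls and 3.50% to 4.20% in the treated tumors (difference 0.663 percentage points, exact permutation p = 0.2).

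**Figure D2:**
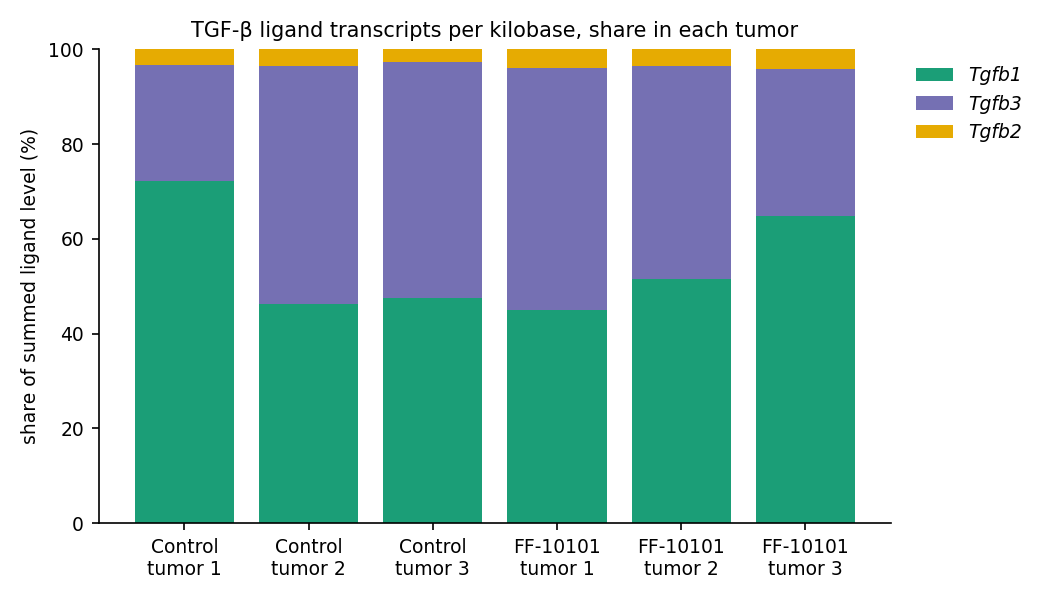
Share of each TGF-β isoform in the summed ligand level per kilobase, in percent, 1 stacked bar per tumor. *Tgfb1* takes 72.2% in control tumor 1 and 64.9% in treated tumor 3, while in the other 4 tumors *Tgfb1* and *Tgfb3* take similar shares.

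*Il10* (ENSMUSG00000016529), made by macrophages, regulatory T cells and other leukocytes, was the least abundant of the 9. Its counts were small, with 40, 23 and 15 reads in control tumors 1 to 3 and 34, 15 and 23 in treated tumors 1 to 3. In normalized counts these were 45.0, 25.0 and 16.6 in the controls and 26.0, 16.3 and 20.4 in the treated tumors. Control 1 was the highest, and the other 5 tumors lay between 16.3 and 26.0. The exact Poisson 95% interval, which covers counting error only, was 32.2 to 61.3 for control 1 and 9.11 to 26.9 for treated tumor 2, the highest and the lowest tumor. It was 9.31 to 27.4 for control 3, close to that of treated tumor 2, and 18.0 to 36.3 for treated tumor 1, which overlaps that of control 1. The control mean was 28.9 ± 14.6 and the treated mean 20.9 ± 4.86 (SD, n = 3 each). The log2 fold change was −0.36 (SE 0.46, 95% interval −1.41 to 0.70, limma adjusted p = 0.714).

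Of the receptor chains, *Il10ra* (ENSMUSG00000032089), the ligand-binding chain carried by hematopoietic cells, had 1695, 836 and 731 normalized counts in the controls and 1065, 1228 and 1036 in the treated tumors. The treated tumors lay between control 1 and the other controls. The means were 1087 ± 529 and 1109.6 ± 103 (SD, n = 3 each), and the log2 fold change was 0.13 (SE 0.30, 95% interval −0.57 to 0.82, limma adjusted p = 0.851).

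*Il10rb* (ENSMUSG00000022969), the broadly expressed shared chain, had 926, 728 and 661 normalized counts in the controls and 518, 867 and 924 in the treated tumors. Treated tumor 1 was the lowest of the 6, and treated tumor 3 nearly reached control 1. The means were 772 ± 138 and 769.6 ± 219.8 (SD, n = 3 each), and the log2 fold change was −0.035 (SE 0.25, 95% interval −0.61 to 0.54, limma adjusted p = 0.955).

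*Tgfbr1* (ENSMUSG00000007613), the signaling kinase of the TGF-β receptor, varied least of the 9 among the controls (highest over lowest 1.12-fold). It had 717, 664 and 641 normalized counts there and 426, 689 and 597 in the treated tumors. Treated tumor 1 was again the lowest, and treated tumor 2 lay inside the control range. The means were 674 ± 38.9 and 571 ± 134 (SD, n = 3 each), and the log2 fold change was −0.27 (SE 0.20, 95% interval −0.72 to 0.19, limma adjusted p = 0.529).

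*Tgfbr2* (ENSMUSG00000032440), the ligand-binding kinase, had 2182, 2063 and 1737 normalized counts in the controls and 1661, 2579 and 2917 in the treated tumors. The lowest and the highest of the 6 were both treated tumors. The means were 1994 ± 230.1 and 2386 ± 650.0 (SD, n = 3 each), and the log2 fold change was 0.23 (SE 0.23, 95% interval −0.30 to 0.75, limma adjusted p = 0.639). Treated tumor 1 was thus the lowest of the 6 for *Il10rb*, *Tgfbr1* and *Tgfbr2*. This tumor also had the lowest macrophage marker sum (25682, against 36312 and 36115 in treated tumors 2 and 3). Its keratinocyte marker sum was 957, against 28.2 and 19.6 in treated tumors 2 and 3 and 31.5 to 173 in the controls. Its adipocyte marker sum was 135, against 1116 and 1221 there and 373 to 744 in the controls. The part of these cell types in its receptor values was not tested.

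*Tgfbi* (ENSMUSG00000035493) encodes a secreted matrix protein that was named for its induction by TGF-β and that macrophages also make. It had 18365, 8208 and 7104 normalized counts in the controls and 12065, 12041 and 10862 in the treated tumors. The treated tumors lay close together, below control 1 and above the other controls. The means were 11226 ± 6208 and 11656 ± 688 (SD, n = 3 each), and the log2 fold change was 0.19 (SE 0.34, 95% interval −0.60 to 0.97, limma adjusted p = 0.805).

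The *Tgfbi* promoter is shown for comparison with that of *Tgfb1* (RefSeq, GRCm38.p6, plus strand, chr13:56609336-56609635, GC content 63.3%). Capitals mark matches to CAGAC and to GGGCGG on either strand.

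Tgfbi promoter: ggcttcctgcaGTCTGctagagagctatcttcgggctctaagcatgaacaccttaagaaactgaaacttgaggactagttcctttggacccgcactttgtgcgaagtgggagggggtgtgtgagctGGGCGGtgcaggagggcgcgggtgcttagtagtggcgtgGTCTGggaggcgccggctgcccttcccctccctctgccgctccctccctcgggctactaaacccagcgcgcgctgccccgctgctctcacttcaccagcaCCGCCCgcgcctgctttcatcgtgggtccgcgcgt

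This window holds 2 CAGAC matches. Of the 32851 promoters, 49.6% hold at least 1 and 16.2% at least as many. It also holds 2 GC boxes, and 19.5% of promoters hold at least as many. The AP-1 and STAT letters, which 7.81% and 8.30% of promoters hold, are not in it. RefSeq windows were also read for *Tgfb2*, *Tgfbr1* and *Tgfbr2*. That of *Tgfb2* holds 2 CAGAC matches and 0 GC boxes. Of the 2 windows of *Tgfbr1*, which also stood highest in control tumor 1, 1 holds 2 GC boxes and the other 1 CAGAC match. That of *Tgfbr2* holds 1 CAGAC match and 0 GC boxes.

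Compared per kilobase of transcript, the order of the levels was steady at its ends and mixed in the middle. *Tgfbi* was the highest in 6 of 6 tumors, with a mean of 4136 normalized counts per kilobase in the controls and 4295 in the treated tumors. *Tgfb2* (42.4 and 47.0) was the eighth and *Il10* (22.1 and 16.0) the ninth in 6 of 6 tumors. Between them, *Tgfb1* (737 and 651) lay above *Tgfb3* (534 and 532) in 3 of 6 tumors, and *Il10rb* (417 and 416) above *Il10ra* (345 and 352) in 4 of 6, so these neighbors did not differ beyond the spread of the tumors. *Tgfbr2* (345 and 413) was higher than *Tgfbr1* (287 and 243) in 6 of 6 tumors. These pairs were picked after the levels were seen.

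Control tumor 1 set much of the spread. It was the highest of the 6 tumors for 6 of the 9 genes, as against 20.4% of all tested genes, and the lowest for 0 of the 9, as against 17.8%. This count was made after the values were seen. Its level over the mean of controls 2 and 3 was 2.40-fold for *Tgfbi*, 2.16-fold for *Il10* and *Il10ra* and 1.78-fold for *Tgfb1*, whereas for *Tgfb3* it was 0.562-fold. The summed macrophage markers of this tumor were likewise above those of controls 2 and 3, as given above. It was also the highest of the 6 tumors for 9 of 10 macrophage, 6 of 8 T cell and 5 of 6 regulatory T cell markers. It was the lowest for 0 of each. Of 7 neutrophil markers it was the highest for 1, and of 8 fibroblast markers for 0. Standing highest in this tumor was thus not particular to the 9 genes.

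Without control tumor 1, 2 of the 9 genes passed an adjusted p of 0.05, both higher in treated tumors, as against 21.9% of all tested genes (3051 of 13963), so the share among the 9 was near the background. *Tgfbi* then had a log2 fold change of 0.61 (SE 0.14, 95% interval 0.29 to 0.93, limma adjusted p = 0.020), higher in 3 of 3 treated tumors than in both remaining controls. *Il10ra* had 0.50 (SE 0.14, 95% interval 0.17 to 0.83, limma adjusted p = 0.041), with the same separation. The other 7 genes did not pass, from −0.30 for *Tgfb3* to 0.30 for *Tgfb2*. The direction of *Il10*, *Il10rb* and *Tgfb1* turned without this tumor, to 0.0086, 0.10 and 0.16.

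**Figure D3:**
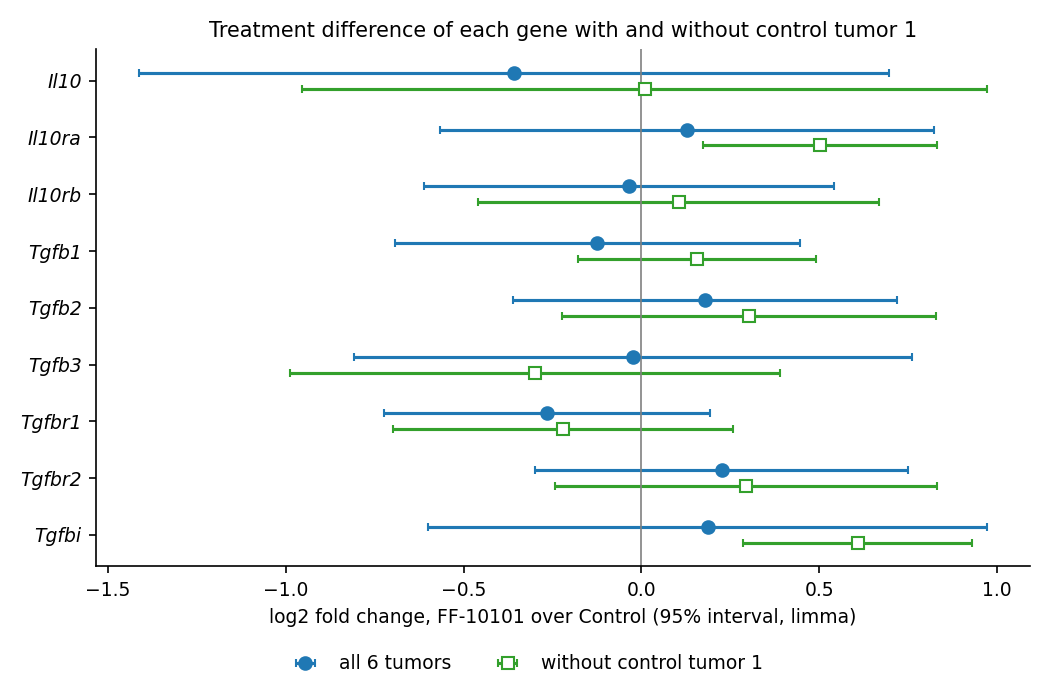
Log2 fold change (treated minus control) of the 9 genes with 95% intervals, for all 6 tumors and without control tumor 1. With all tumors every interval spans 0, and without control tumor 1 those of *Il10ra* and *Tgfbi* lie above 0.

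The genes nearest in pattern were sought for 4 of the genes by the root mean square difference of log2 values over the 6 tumors, among 11026 genes. They were *Pla2g15* (0.031), *Cebpa* (0.048) and *Tmem51* (0.050) for *Tgfb1*, and *Zyg11b* (0.043), *Tab3* (0.054) and *Dhdh* (0.055) for *Tgfbr2*. For *Tgfbi* they were *Isoc2b* (0.027), *Pik3r6* (0.042) and *Zfp467* (0.050), and for *Il10ra* *Vps35l* (0.062), *Zfp467* (0.067) and *Clcn7* (0.081). *Zfp467* appears beside both *Tgfbi* and *Il10ra*. With 6 tumors in all, of which control 1 is one, such nearness is a description only.

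The wider pathways were read from 10 hand-written lists, and none of their genes passed an adjusted p of 0.05 in limma over all tested genes. The genes named are the 3 with the smallest p of each list. Of 15 tested genes that hold TGF-β latent or release it, 2 were higher and 0 lower at an unadjusted p of 0.05, a share no higher than the 16.3% of all tested genes, with a median log2 fold change of 0.18 (all tested genes 0.020). *Lrrc32*, which displays latent TGF-β on regulatory T cells and platelets, had 148 ± 53.9 normalized counts in controls and 326 ± 98.2 in treated tumors (SD, n = 3 each; log2 fold change 1.15, limma adjusted p = 0.229). Summed regulatory T cell markers were 606 to 1136 in control and 624 to 992 in treated tumors, platelet markers 47.7 to 125 and 79.3 to 138, and endothelial markers 1816 to 5781 and 5585 to 6118. Their part in the *Lrrc32* values was not tested. Of the integrin chains, *Itgb3* had a log2 fold change of 0.80 and *Itgav* one of −0.37.

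Among 8 co-receptors and receptor regulators, 1 was higher and 0 lower at an unadjusted p of 0.05, a share no higher than that 16.3% (median 0.21). *Tgfbr3*, betaglycan, which presents TGF-β2 to TGFBR2, had 336 ± 133 and 700.1 ± 91.0 normalized counts (SD, n = 3 each; log2 fold change 1.12, limma adjusted p = 0.229), and its 3 treated tumors lay above the controls. *Eng*, the endothelial co-receptor endoglin, had a log2 fold change of 0.63 beside endothelial marker sums of 1816 to 5781 in control and 5585 to 6118 in treated tumors. *Fkbp1a*, which holds TGFBR1 inactive, had −0.19.

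Of the 15 SMAD transducers and regulators, 0 reached an unadjusted p of 0.05 in either direction (all tested genes 16.3%), and the median log2 fold change was 0.11. *Smurf1*, a ubiquitin ligase of the pathway, had 0.32, *Smad3* 0.34 and the corepressor *Tgif1* −0.29.

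Of 20 genes known to respond to TGF-β, 7 were higher and 1 lower at an unadjusted p of 0.05 (all tested genes 16.3% in either direction), and the median log2 fold change was 0.51. With single tumors left out this median ran from 0.21 (without control 3) to 0.61 (without control 1). *Snai2*, a transcription factor of mesenchymal cells, had 99.5 ± 70.8 and 268 ± 27.7 normalized counts (SD, n = 3 each; log2 fold change 1.63, limma adjusted p = 0.229). *Timp1*, a metalloproteinase inhibitor, had a log2 fold change of 0.56. *Tagln*, a smooth muscle and myofibroblast gene, had 558 ± 161 and 259 ± 23.5 (SD, n = 3 each; log2 fold change −1.07, limma adjusted p = 0.229). Beside these, summed fibroblast markers were 9070 to 17106 in control and 19295 to 25118 in treated tumors, and pericyte markers 1530 to 2379 and 3086 to 3231. Their part in these values was not tested.

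Among 17 other ligands and receptors of the TGF-β superfamily, 4 were higher and 1 lower at an unadjusted p of 0.05, as against 16.3% of all tested genes (median 0.42). *Gdf15*, a stress-induced ligand, had few reads, with 20.3 ± 1.94 normalized counts in controls and 7.37 ± 2.08 in treated tumors (SD, n = 3 each; log2 fold change −1.37, limma adjusted p = 0.243). *Gdf11* had 0.60 and *Inhbb*, an activin subunit gene, 1.20 on the log2 scale.

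On the IL-10 side, 0 of 6 signal transducers reached an unadjusted p of 0.05 (all tested genes 16.3%), with a median log2 fold change of 0.47. *Stat3*, which carries the IL-10 signal, had 1566 ± 831 and 2346 ± 244 normalized counts (SD, n = 3 each; log2 fold change 0.70, limma adjusted p = 0.330). *Socs3*, a feedback inhibitor, had 0.38.

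Of 13 genes that IL-10 induces in macrophages, 1 was higher and 0 lower at an unadjusted p of 0.05, below the 16.3% of all tested genes (median 0.34). That gene was *Il1rn*, the IL-1 receptor antagonist, with 634 ± 395 normalized counts in controls and 1884 ± 237 in treated tumors (SD, n = 3 each; log2 fold change 1.73, limma adjusted p = 0.229). *Dusp1* had a log2 fold change of 0.98 and *Sbno2* one of 0.34. *Stat3*, *Il1rn* and *Snai2* are also driven by other signals. Summed neutrophil markers were 2000.0 to 2323 normalized counts in control and 2956 to 3396 in treated tumors, and their part in the *Il1rn* values was not tested.

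Of 10 regulators of *Il10* transcription, 0 were higher and 1 lower at an unadjusted p of 0.05, likewise below 16.3% (median 0.15). It was *Maf*, the c-MAF factor of IL-10–producing macrophages and T cells, with 1830 ± 260.2 and 1215 ± 202 normalized counts (SD, n = 3 each; log2 fold change −0.59, limma adjusted p = 0.229). Its 3 treated tumors lay below the controls, and among the macrophage markers those of *Adgre1* and the C1q genes did so as well. *Ahr* had a log2 fold change of 0.68 and *Ets1* one of 0.48.

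Only 2 of 11 ligands and receptors of the wider IL-10 family reached the minimum, *Il20ra* (log2 fold change 1.54) and *Il20rb* (0.53). The ligand genes *Il20*, *Il22*, *Ifnl2* and *Ifnl3* and the decoy receptor *Il22ra2* had 0 reads in all 6 tumors, which allows up to 3 reads in each, or 2.29 to 3.38 normalized counts. Of 7 tested genes for other suppressive cytokines, 0 reached an unadjusted p of 0.05, as against 16.3% of all tested genes (median 0.10, and −0.045 among genes with a mean of 50 or more). These included *Ebi3*, a subunit of IL-27 and IL-35, at −0.65, *Il13* at 1.49 on few reads, and galectin-1, *Lgals1*, at −0.53.

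Without control tumor 1, when 21.9% of all tested genes passed, genes of most of these lists passed too. In each of the 5 fits that left out another tumor, 0 genes of every list passed. Control tumor 1 was singled out after the values were seen, and its fit rests on 2 controls. It was the highest of the 6 tumors for 5 of 6 IL-10 signal transducers, 7 of 13 IL-10 response genes and 2 of 20 TGF-β response genes (all tested genes 20.4%). For such genes leaving it out by itself raises the fold change, so these calls are no separate support. Without it, on the IL-10 side, 5 of 6 signal transducers (5 higher, 0 lower) and 7 of 13 response genes (6 higher, 1 lower) had an adjusted p of 0.05 or less in limma. *Stat3* then had a log2 fold change of 1.11 (limma adjusted p = 0.0034) and *Il1rn* 2.21 (0.00026). On the TGF-β side, 11 of 20 response genes passed (9 higher, 2 lower), among them *Snai2* at 2.17 (limma adjusted p = 0.00068) and *Tagln* at −1.30 (0.0030). Of the latency genes 3 passed as higher and 1 as lower, of the co-receptors 2 as higher, of the *Il10* regulators 3 as higher, and of the SMAD list 0. *Lrrc32* had 1.42 (limma adjusted p = 0.012) and *Tgfbr3* 1.42 (0.0031). Of the other superfamily genes 1 passed as higher, of the wider IL-10 family 1 as higher, and of the other suppressive cytokines 1 as lower, *Lgals1* at −0.81 (limma adjusted p = 0.020).

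With single tumors left out, the median ran from 0.27 (without control 3) to 0.85 (without control 1) for the IL-10 signal transducers and from 0.073 to 0.54, for the same tumors, for the IL-10 response genes. Of the other lists it ran from 0.091 to 0.41 for latency genes, 0.055 to 0.43 for co-receptors, 0.049 to 0.14 for the SMAD list, 0.29 to 0.55 for the superfamily, 0.021 to 0.36 for *Il10* regulators and 0.037 to 0.30 for other suppressive cytokines.

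**Figure D4:**
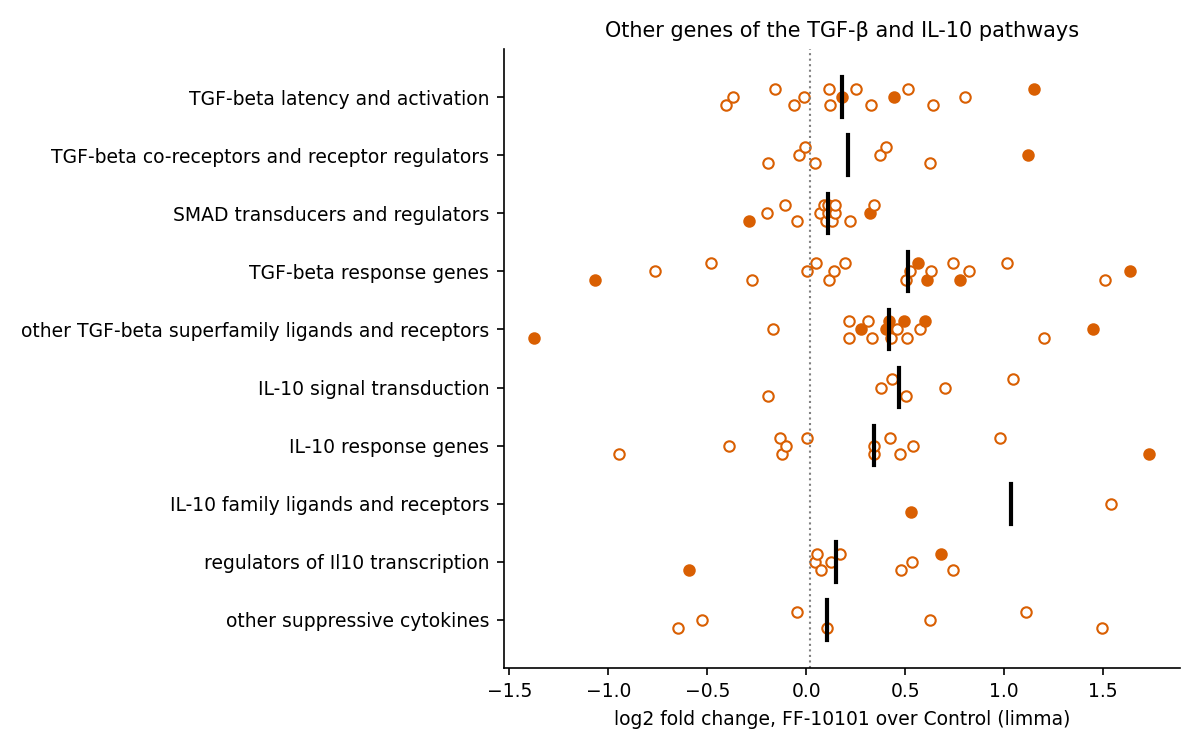
Log2 fold change (treated minus control, all 6 tumors) of each tested gene in the pathway lists, 1 point per gene, filled where the 3 treated tumors lie all above or all below the 3 controls. Bars mark the median of each list and the dotted line that of all tested genes (0.020). Genes known to respond to TGF-β have a median of 0.51 and SMAD transducers one of 0.11, and no gene passed an adjusted p of 0.05.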

How the data were processed

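RNA of 3 control and 3 FF-10101–treated tumors was analysed, grouped by the treatment labels. The authors trimmed reads with fastp 0.19.5, quantified them with Salmon 1.5.1 on GENCODE vM27 (GRCm39) and used DESeq2 1.22.1, according to the submitters' processing notes and the study's methods. The authors deposited log2 values shaped as variance-stabilized counts from DESeq2, not the normalized counts that had been planned for. Its inverse gave whole reads (tolerance 0.001) for 100% of values and 1 size factor per tumor. Because Salmon shares reads between similar transcripts by estimation, reads of near-identical genes are uncertain.

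After adding 1, normalized counts were put on the log2 scale and tested as planned with limma 3.58.1 (trend, group as the sole term) in R 4.3.3, over genes averaging 10 or more, and p-values were adjusted by Benjamini-Hochberg. This scale understates changes of genes with few reads. Of 54309 identifiers, 51484 were named and transcript lengths taken from GENCODE vM21 (GRCm38), and promoters came from RefSeq (GRCm38.p6), which held windows for 5 of the 9 genes. Shares were compared by exact permutation tests. Zero reads allow up to 3 reads, a normalized count of 2.29 to 3.38, for counting error only.

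The 9 genes and the lists were chosen with earlier results of these data known. Named besides the 9 were the 3 genes of smallest p in each list and the 3 nearest in pattern to *Tgfb1*, *Tgfbr2*, *Tgfbi* and *Il10ra* (mean of at least 50, no pseudogenes), of which 1 list gene is not reported here. Alternatives were pseudocounts of 0.5 and 10, other minimum counts, scaling to the 75th percentile or to total reads, quantile normalization, the deposited values, no trend, array weights, limma-voom, a replicate block and each tumor left out. The procedure was tested on simulated data.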

Additional observations from a re-analysis of the deposited data

How the results depend on the processing

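Over all tested genes, the 6 that passed an adjusted p of 0.05 in limma became 17 with no minimum count, 3 with a mean of at least 50, 8365 with array weights and 1 with the replicate block, and 1 to 3051 when single tumors were left out (3051 without control tumor 1, 1 without control 2 and 3 each without control 3 or treated tumor 2). Of the 9 genes, 0 passed, as against 3 with array weights (*Il10ra* at 0.51, *Tgfbr2* at 0.33 and *Tgfbi* at 0.53) and 0 to 2 when single tumors were left out. Array weights rested mostly on control tumor 2 (weight 5.39) and treated tumor 2 (8.08), against 0.139 to 0.859 for the other 4 tumors, so these calls are close to a comparison of 1 tumor with 1. These weights turned the log2 fold changes of *Il10rb* to 0.23, *Tgfb1* to 0.14 and *Tgfbr1* to 0.0064. Scaling to total reads turned *Tgfb3* to 0.0012. With single tumors left out the log2 fold change ran from −0.68 to 0.0086 for *Il10*, −0.11 to 0.50 for *Il10ra*, −0.19 to 0.23 for *Il10rb*, −0.32 to 0.16 for *Tgfb1*, −0.047 to 0.30 for *Tgfb2*, −0.30 to 0.31 for *Tgfb3* and −0.077 to 0.61 for *Tgfbi*. *Tgfbr1* (−0.42 to −0.069) and *Tgfbr2* (0.061 to 0.47) kept their direction. The difference in the *Tgfb1* share ran from −7.08 to 6.93 percentage points. The cause was not tested. Tumors of the same number did not deviate together (r of −0.29, −0.040 and −0.28 across genes), as against −0.13 to 0.31 for tumors of unlike number. With deviations taken from means of 3 tumors, these values cannot decide whether the replicate numbers pair tumors. A mean of at least 50 leaves out *Il10* and both tested genes of the wider IL-10 family.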
